A study of Mus musculus with 9 samples.

Results

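Hox genes were compared in mouse embryonic fibroblasts (MEFs) with intact H3K9 methyltransferases and in MEFs lacking either the Suv39h1/Suv39h2 or the G9a/Glp pair. Members were all rows of the gene count table whose identifier carries a symbol of Hoxa, Hoxb, Hoxc or Hoxd followed by a paralogue number from 1 to 13, without opposite-strand transcripts. They amounted to 39 of 47937 genes. On GRCm38, the Hoxa cluster holds 11 members at chr6:52155590-52260880, the Hoxb cluster 10 at chr11:96194316-96368256, the Hoxc cluster 9 at chr15:102921103-103036852 and the Hoxd cluster 9 at chr2:74668310-74765142.

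Total RNA was sequenced in 9 libraries, 3 from each of 3 genotypes. WT cells were a MEF clone with a conditional Eset1 (Setdb1) allele and a tamoxifen-inducible Cre, in which Eset1 was left intact. S1S2 cells lacked the methyltransferases Suv39h1 and Suv39h2, and G9Gl cells lacked G9a (Ehmt2) and Glp (Ehmt1). Each mutant was a single clone made by CRISPR/Cas9 from the same conditional Eset1 cells, so the knockout and the clone cannot be told apart. After the disruptions the study re-introduced an inducible Cre construct and kept the lines under puromycin, which cannot be told apart from the knockout either. The labels name no Eset1 deletion in S1S2 or G9Gl. The study describes 3 biological replicates per cell line, and p-values therefore measure the spread between samples of a clone.

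Hox proteins are homeodomain transcription factors that give cells their position along the body axis. Within a cluster the genes lie in the order in which they are used along that axis, from anterior (low numbers) to posterior (high numbers), and cultured fibroblasts keep much of the Hox pattern of the body site from which they came. Inactive Hox genes are known as targets of Polycomb repression, marked by H3K27 methylation, whereas H3K9 dimethylation by G9a and Glp and H3K9 trimethylation by Suv39h enzymes mark other kinds of silent chromatin. Here paralogues 1 to 4 are called anterior, 5 to 8 central and 9 to 13 posterior.

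The libraries held 21319778 to 32157623 gene counts. Suv39h1 RNA was at 103 to 113 CPM (counts divided by the library total after trimmed-mean scaling and brought to a common size) in WT and 38.3 to 44.2 CPM in S1S2, while Suv39h2 was not lower there, at 52.7 to 57.4 CPM against 33.2 to 34.4 CPM in WT. Ehmt2 was at 114 to 132 CPM in WT and 51.9 to 57.4 CPM in G9Gl, and Ehmt1 at 102 to 106 CPM and 48.6 to 51.8 CPM. Frameshift alleles can still be transcribed, so the level of these RNAs is only a partial check of the labels. Of 8 fibroblast markers, 5 were called lower than WT in S1S2 (Col1a2, Col3a1, Pdgfra, Pdgfrb and Thy1), beside 4.34% of all genes tested. In G9Gl 2 were called lower (Pdgfra and Pdgfrb), beside 3.40%, and Thy1 was called higher, beside 6.77%. Vim was higher in S1S2 by 0.72 on the log2 scale, past the adjusted p. The summed fibroblast markers stood at 9800 to 11300 CPM in WT, 7370 to 7430 CPM in S1S2 and 7720 to 8580 CPM in G9Gl. Of 4 epithelial markers Krt8 alone was tested, with 104 to 113 counts in S1S2 against 3 to 6 in WT, and it made up most of the summed list of 4.67 to 5.55 CPM in S1S2, against 0.297 to 0.547 CPM in WT and 0.294 to 0.395 CPM in G9Gl. The defining markers Epcam (2 to 6 counts in S1S2, 6 to 10 in WT) and Cdh1 (0 to 1 and 0 to 3 counts) were near 0, as was Krt18 with 0, 8 and 3 counts in S1S2 and 0 in WT. The part of these marker differences in the Hox values was not tested.

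Most genes of Hoxa, Hoxb and Hoxc were transcribed and most of Hoxd were at 0, as the heat map of CPM by library shows, while in WT the lowest members of Hoxa were below Hoxd8 per kilobase of exon. In all, 29 genes passed the filter on low counts, 28 of the 30 in Hoxa, Hoxb and Hoxc and, from Hoxd, Hoxd8. Not a single read was counted in any of the 9 libraries for 8 genes, namely Hoxb1, Hoxd1, Hoxd3, Hoxd9, Hoxd10, Hoxd11, Hoxd12 and Hoxd13. Hoxa2 had 0 to 5 counts per library and Hoxd4 had 0 in every WT and S1S2 library, with 1, 2 and 2 counts in G9Gl, and neither was tested.

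**Figure D1:**
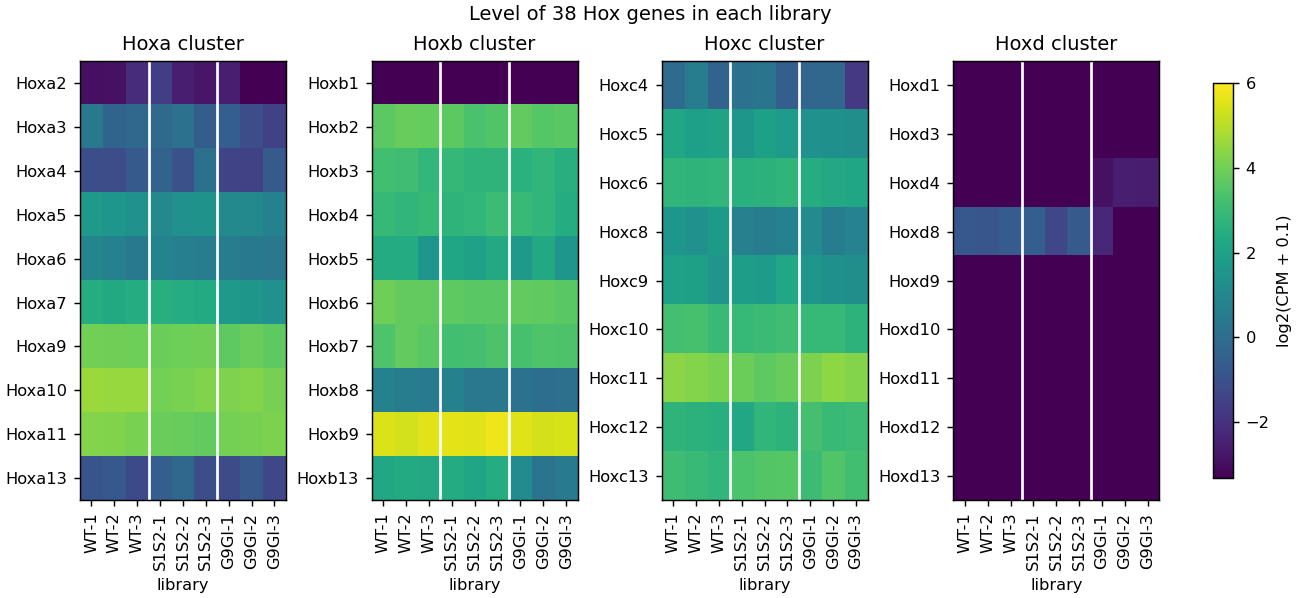
Level of 38 Hox genes as log2(CPM + 0.1) in each of 9 libraries, a panel for each cluster and a row for each gene in order of paralogue number, with white lines between WT, S1S2 and G9Gl. Hoxb9 is the brightest row in every library, and 7 of 9 Hoxd genes stay at 0 throughout.

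Levels between genes were compared as CPM per kilobase of exon. Hoxb9, a posterior gene of the thoracic and lumbar region, ranked first of 29 in each genotype, at 17.4 ± 1.36 CPM per kilobase in WT (SD, n = 3). It was followed in WT by Hoxc11 at 9.42 ± 0.877, Hoxa11 at 8.05 ± 0.463, Hoxb7 at 7.80 ± 0.864, Hoxa10 at 7.23 ± 0.101 and Hoxb6 at 7.15 ± 0.484 CPM per kilobase. From Hoxa11 on, each of these genes overlapped its neighbour within 1 SD, while Hoxc11 and Hoxa11 did not quite meet. The tested genes at the bottom of the order were Hoxd8 at 0.183, Hoxa13 at 0.168 and Hoxa3 at 0.151 CPM per kilobase.

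The median level rose from the anterior to the posterior class in each transcribed cluster, with exceptions at the posterior ends. In WT the median of the Hoxa genes was 0.206 CPM per kilobase for the 4 anterior, 1.78 for the 3 central and 5.03 for the 4 posterior members, although Hoxa13, at the posterior end, was among the lowest. In Hoxb the corresponding medians were 2.38, 4.37 and 9.80 over 4, 4 and 2 members, the last made up of Hoxb9 and of Hoxb13, which at 2.21 CPM per kilobase lay below the anterior median. In Hoxc the lone anterior member Hoxc4 was at 0.380 CPM per kilobase, the central median was 1.36 and the posterior median was 4.67. The same order of the 3 classes held in S1S2 and in G9Gl for each of these clusters. Over the 29 tested genes, the rank correlation of the per-kilobase level was 0.989 between WT and S1S2 and 0.972 between WT and G9Gl, a description across genes that share libraries and annotated lengths and are not independent.

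Transcribed genes stood on both sides of the silent Hoxd cluster. Of the 3 nearest protein-coding genes on each side, Evx2, a homeobox gene next to Hoxd13, had 0 counts in all libraries, whereas Lnpk, Atp5g3, Mtx2, Hnrnpa3 and Nfe2l2 had 1072 to 8236 counts. Within the Hoxd span, 7 of the 10 other annotated genes were also at 0, and none of them had more than 2 counts in any library. A gene at 0 may still have been present at up to 3 counts, that is 0.0923 to 0.141 CPM depending on the library, a limit for counting error only. Neither mutant therefore showed Hoxd transcription detectable at this depth beyond the traces of Hoxd8 and Hoxd4. Hoxd3 and Hoxd4 share 62.3% and 52.3% of their exon bases with other genes on the same strand, so their values depend on how shared reads were assigned. Of 24 flanking genes 19 were tested, and none passed the adjusted p of 0.01 together with a 2-fold difference in any comparison. Of all genes, 9.0% passed both limits in S1S2 against WT, 10.2% in G9Gl against WT and 13.1% between the mutants. By the adjusted p alone, 3 flanking genes were higher and 5 lower in S1S2 than in WT, beside 20.3% and 17.6% of all genes. In G9Gl against WT 2 were higher and 5 lower, beside 19% and 16.0%. Against S1S2, 3 were higher and 5 lower in G9Gl, beside 21.6% and 21.1%.

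**Figure D2:**
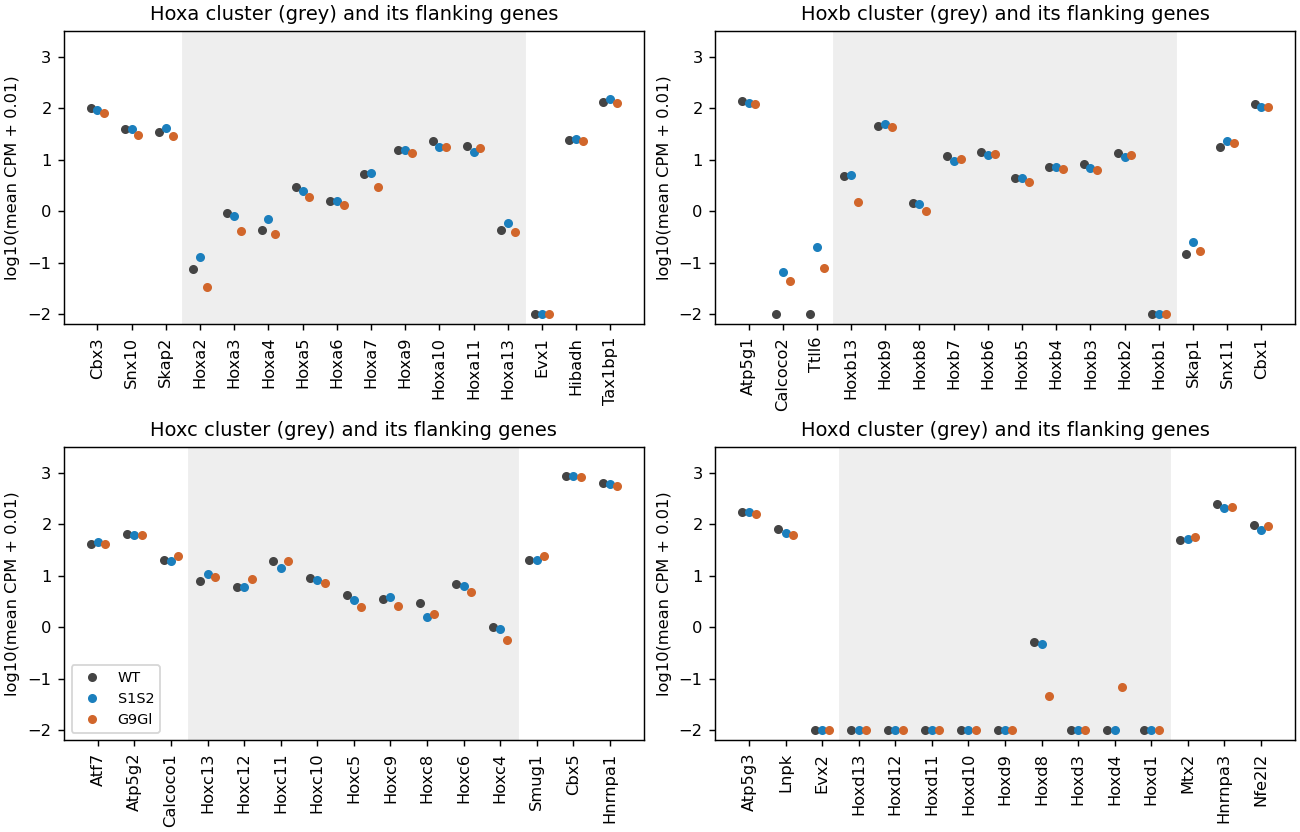
Mean level of 3 libraries, as log10(mean CPM + 0.01), of the Hox genes (grey field) and of the 3 nearest protein-coding genes on each side, in the order of their annotated starts, a panel for each cluster. Points at -2 are genes with 0 counts, which fill the Hoxd field except at Hoxd8 and Hoxd4 while 5 of the 6 Hoxd flanking genes lie near those of the other clusters.

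Promoter sequence was looked up in the RefSeq table of GRCm38.p6, which held 24 start sites for 22 of the 39 members. Over the 250 bases before the start, Hox promoters had a median of 12.5 CpG dinucleotides against 6.0 for all 32851 promoters of the table, and the 8 windows of the 7 Hoxd genes at 0 had a median of 16.5. The extended HOX-PBX motif TGATTNAT, searched on both strands, was present in 2 of the 24 Hox windows (8.33%) and in 2.82% of all promoters. It was found in a window of Hoxa2 and in a window of Hoxd11, too few to compare the shares. Of the 24 windows 10 were from Hoxa and 10 from Hoxd, so Hoxb and Hoxc were little covered. The 3 windows below were chosen to set a Hoxd gene with 0 counts (Hoxd12) beside Hoxd8, which was counted at a trace, and beside Hoxa5, a transcribed gene that was lower in G9Gl. Capitals mark CpG dinucleotides. The window of Hoxd12 lies at chr2:74674763-74675012 (plus strand, 10 CpG), that of Hoxd8 at chr2:74704365-74704614 (plus strand, 6 CpG) and that of Hoxa5 at chr6:52204588-52204837 (minus strand, 28 CpG).
Hoxd12: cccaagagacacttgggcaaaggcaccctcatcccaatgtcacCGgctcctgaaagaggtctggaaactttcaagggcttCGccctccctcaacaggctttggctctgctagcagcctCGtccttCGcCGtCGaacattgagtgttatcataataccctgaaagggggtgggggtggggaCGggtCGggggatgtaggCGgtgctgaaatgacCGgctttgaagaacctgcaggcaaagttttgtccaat
Hoxd8: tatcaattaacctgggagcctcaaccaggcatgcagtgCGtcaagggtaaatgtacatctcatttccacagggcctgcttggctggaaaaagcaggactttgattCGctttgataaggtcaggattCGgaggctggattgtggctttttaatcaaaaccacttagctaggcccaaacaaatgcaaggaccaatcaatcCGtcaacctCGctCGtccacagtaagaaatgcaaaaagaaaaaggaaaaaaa
Hoxa5: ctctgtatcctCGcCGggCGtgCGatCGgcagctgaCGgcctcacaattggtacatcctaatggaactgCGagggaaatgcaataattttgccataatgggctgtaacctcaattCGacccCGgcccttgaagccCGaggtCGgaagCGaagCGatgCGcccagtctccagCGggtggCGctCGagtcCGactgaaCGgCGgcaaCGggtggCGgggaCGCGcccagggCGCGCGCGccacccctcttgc
CpG number did not separate transcribed from silent members, since, for example, the window of the transcribed Hoxa9 held 3 and that of the silent Hoxd1 held 24.

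In S1S2 cells no Hox gene passed an adjusted p of 0.01 with a 2-fold difference in edgeR's quasi-likelihood test with Benjamini-Hochberg adjustment, beside 9.0% of the 15540 genes tested (4.34% lower and 4.66% higher), and DESeq2 also called 0. At an unadjusted p under 0.05 there were 10 of 29 members, beside 54.6% of all genes. By the adjusted p alone, without the fold limit, 5 members were lower (Hoxa10, Hoxa11, Hoxb7, Hoxc8 and Hoxc11) and 1 was higher (Hoxc13), that is 6 of 29, beside 37.9% of all genes tested (17.6% lower and 20.3% higher). Fold changes of the 29 members ran from -0.92 to 0.69 on the log2 scale with a median of -0.09, beside -0.003 for all genes, and were below 0 for 21 of the 29, beside 50.4% of all genes.

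Of the 6 genes past the adjusted p in S1S2, 4 were posterior, of 11 tested, and 2 central, of 11 tested. Of the 7 anterior genes tested 0 passed, and the share over all genes was 37.9%. Hoxa10, which takes part in patterning the limb and the reproductive tract, had 24.0, 23.6 and 23.3 CPM in WT and 16.6, 17.5 and 18.8 CPM in S1S2. The S1S2 libraries were all below the WT libraries, with a log2 fold change of -0.42 ± 0.0627 (SE, edgeR adjusted p = 8.6e-05). Hoxa11, which acts in forelimb and kidney development, had 19.2, 18.8 and 17.2 CPM in WT, 14.4, 14.1 and 13.3 CPM in S1S2 and 16.5, 16.9 and 17.7 CPM in G9Gl. It was lower in S1S2 by a log2 fold change of -0.40 ± 0.0544 (edgeR adjusted p = 2.2e-04), and its G9Gl libraries overlapped those of WT. Hoxc11, a neighbour of Hotair in the Hoxc cluster that acts in the hindlimb, had 20.7, 19.2 and 17.2 CPM in WT, 14.8, 12.8 and 14.1 CPM in S1S2 and 17.7, 21.4 and 19.3 CPM in G9Gl. Here too the S1S2 libraries stood below the other 6, by -0.46 ± 0.105 against WT (edgeR adjusted p = 4.69e-04).

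Hoxa11 and Hoxc11 also differed between the mutants. Both were higher in G9Gl than in S1S2, Hoxa11 by 0.29 (edgeR adjusted p = 0.00324) and Hoxc11 by 0.49 (edgeR adjusted p = 2.23e-04). Hoxc8, a central gene, was the member furthest below WT in S1S2, with 2.89, 2.51 and 3.29 CPM in WT and 1.56, 1.46 and 1.60 CPM in S1S2, a log2 fold change of -0.92 ± 0.168 (edgeR adjusted p = 8.54e-04). It lay just within the 2-fold limit, which it passed when the second WT library was left out. Hoxb7, another central gene, had 10.6, 13.3 and 12.2 CPM in WT, 8.87, 9.33 and 10.3 CPM in S1S2 and 9.58, 10.6 and 10.4 CPM in G9Gl. Its change in S1S2 of -0.34 ± 0.10 stood at the edge of the threshold (edgeR adjusted p = 0.00975), which it missed with the size factors of DESeq2.

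Hoxc13, a gene of hair and nail formation at the posterior end of its cluster, was the only member higher in S1S2 by the adjusted p. It had 8.40, 7.77 and 6.99 CPM in WT, 10.1, 11.2 and 11.6 CPM in S1S2 and 8.28, 10.9 and 8.91 CPM in G9Gl. The S1S2 libraries stood above all WT libraries by 0.50 ± 0.125 (edgeR adjusted p = 0.00138), whereas the G9Gl libraries overlapped with both groups.

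Among the 46 other annotated genes within the 4 spans, 11 were tested and 1 was called in S1S2, near the 9.0% of all genes. This was Hotair, a long non-coding RNA transcribed antisense between Hoxc12 and Hoxc11 and known for its link to Polycomb silencing at Hoxd. It had 144, 110 and 139 counts in WT, 31, 33 and 25 in S1S2 and 107, 100 and 121 in G9Gl. The S1S2 libraries lay far below the rest, with a log2 fold change of -1.72 against WT (edgeR adjusted p = 2.17e-07), and G9Gl was higher than S1S2 by 1.57 (edgeR adjusted p = 5.6e-07). The Hoxd genes stayed at 0 or at a trace in S1S2, where Hoxd8 had 0.598, 0.292 and 0.517 CPM against 0.492, 0.463 and 0.548 CPM in WT, overlapping ranges.

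The antisense transcripts Hoxa11os and Hoxb3os were also lower in S1S2 by the adjusted p, at -0.47 (edgeR adjusted p = 0.00205) and -0.50 (edgeR adjusted p = 0.00213), within the fold limit. Exons of Hoxa11os cover 35.0% of the exon bases of Hoxa11 on the other strand. The library kit keeps strand, but the strand setting of the counting is not given in the sources used here, so how far reads of Hoxa11 and Hoxa11os were kept apart was not tested.

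In G9Gl cells Hoxb13 was lower than in WT, and several other Hox genes were lower by smaller amounts. By adjusted p and fold, 2 of 29 members were called, Hoxb13 and Hoxd8, both lower, beside 10.2% of all genes tested (3.40% lower and 6.77% higher), and DESeq2 called 2 as well. Hoxd8 was counted at a trace and passed the filter only through WT and S1S2, and with at least 10 counts required in every library Hoxb13 alone was called. By the adjusted p alone 8 members were lower (Hoxa5, Hoxa7, Hoxa10, Hoxb13, Hoxc5, Hoxc6, Hoxc8 and Hoxd8), beside 16.0% of all genes, and 1 was higher (Hoxc12), beside 19%, together 9 of 29 beside 35.0%. The log2 fold change was below 0 for 26 of the 29 members, beside 50.8% of all genes. The member median was -0.33 against -0.007 for all genes.

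Hoxb13, the gene at the posterior end of the Hoxb cluster and a factor of the tail, the prostate and the distal gut, was the member with the smallest adjusted p. It had 4.71, 5.09 and 4.80 CPM in WT, 5.19, 4.45 and 5.36 CPM in S1S2 and 2.14, 1.11 and 1.31 CPM in G9Gl. WT and S1S2 libraries overlapped, and all G9Gl libraries were below both. The log2 fold change of G9Gl was -1.68 ± 0.234 against WT (edgeR adjusted p = 9.42e-07) and -1.71 ± 0.234 against S1S2 (edgeR adjusted p = 7.77e-07), while S1S2 differed from WT by 0.03 (95% confidence interval -0.53 to 0.61). In the order of levels per kilobase Hoxb13 went from rank 14 in WT and S1S2 to rank 21 in G9Gl. Its Hoxb neighbour Hoxb9 kept 45.3, 41.0 and 48.0 CPM in WT and 46.6, 41.6 and 43.2 CPM in G9Gl, a log2 fold change of -0.03 (95% confidence interval -0.23 to 0.17). No exon of another annotated gene overlaps Hoxb13.

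Hoxd8, the sole Hoxd gene that was tested, had 16, 14 and 17 counts in WT, 13, 8 and 11 in S1S2 and 3, 0 and 0 in G9Gl. The G9Gl libraries were all at or under the floor of 3 counts per library and below every library of WT and S1S2, which overlapped in CPM. Against that floor Hoxd8 was at least 4.83-fold lower in G9Gl than in WT (edgeR adjusted p = 2.27e-04) and at least 4.52-fold lower than in S1S2 (edgeR adjusted p = 4.24e-04). Its call is therefore no support for a change beyond these counts.

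**Figure D3:**
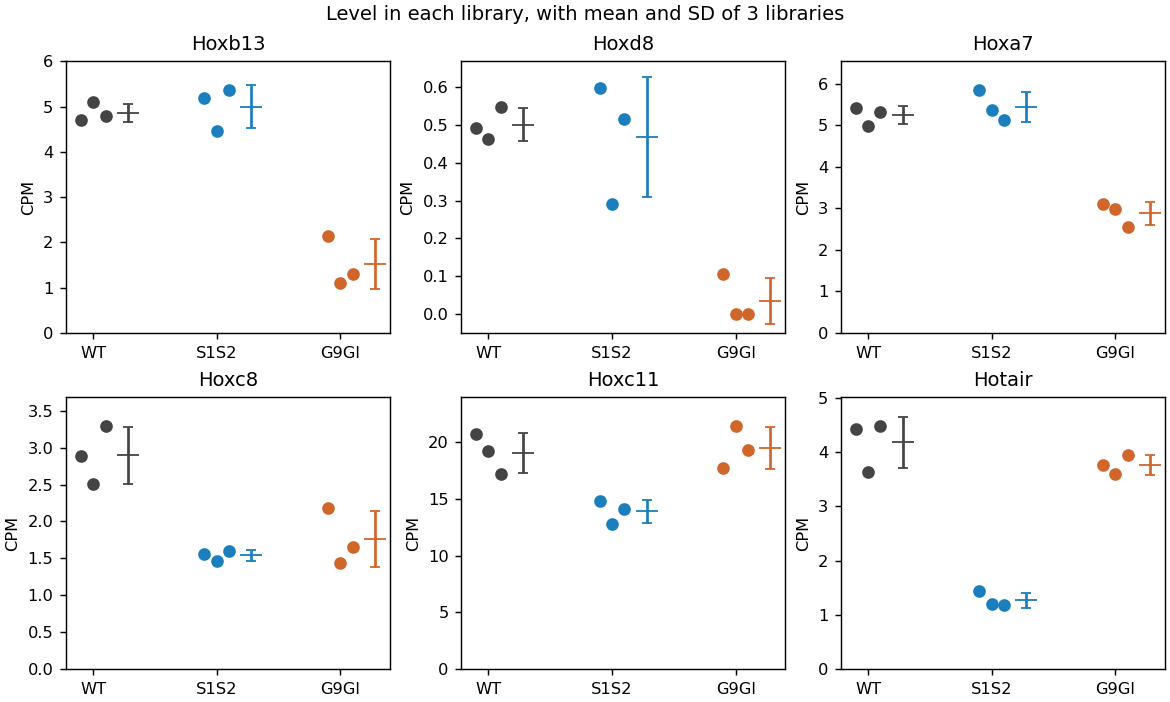
CPM of 5 Hox genes and of the non-coding gene Hotair in each library (points), with the mean and SD of 3 libraries beside them, for WT, S1S2 and G9Gl, each panel on its own linear axis. Hoxb13, Hoxd8 and Hoxa7 are low in G9Gl alone, Hoxc11 and Hotair in S1S2 alone, and Hoxc8 in both mutants.

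Log2 fold changes in G9Gl were below 0 for 11 of 11 central genes, 7 of 7 anterior genes tested and 8 of 11 posterior genes, beside 50.8% of all genes. The medians were -0.56, -0.39 and -0.13. By the adjusted p, 6 central genes, Hoxd8 among them, 0 anterior and 2 posterior genes were lower, beside 16.0% of all genes, and 1 posterior gene was higher. Whether the classes differ was not tested. Across the 29 genes the rank correlation of paralogue number and log2 fold change was 0.297 for G9Gl and 0.124 for S1S2, as a description over genes of shared libraries. Anterior genes had fewer counts, and the median SE was 0.173 for the 12 members with a mean count under 100 and 0.105 for the 17 above.

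Hoxa7, a central gene that takes part in specifying vertebrae, fell most among the well-counted central genes. It had 5.41, 4.99 and 5.32 CPM in WT, 5.84, 5.36 and 5.13 CPM in S1S2 and 3.09, 2.98 and 2.55 CPM in G9Gl. G9Gl was below both other genotypes in every library, by -0.87 ± 0.0868 against WT (edgeR adjusted p = 2.24e-05) and -0.92 ± 0.0868 against S1S2 (edgeR adjusted p = 1.21e-05). Exons of the antisense Hoxaas3 cover 20.4% of its exon bases. Hoxa5, which acts in the lung and the cervical vertebrae, had 3.20, 2.88 and 2.55 CPM in WT, 1.98, 2.55 and 2.68 CPM in S1S2 and 2.0, 1.98 and 1.60 CPM in G9Gl, a change of G9Gl from WT of -0.63 ± 0.155 (edgeR adjusted p = 0.00673), which missed the threshold in DESeq2.

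In the Hoxc cluster, Hoxc5 had 4.77, 3.77 and 4.03 CPM in WT, 2.99, 3.83 and 3.48 CPM in S1S2 and 2.56, 2.44 and 2.32 CPM in G9Gl, a change of G9Gl from WT of -0.78 ± 0.119 (edgeR adjusted p = 3.61e-04). Its neighbour Hoxc6, a gene of the thoracic region, had 6.95, 6.61 and 6.86 CPM in WT, 5.88, 6.20 and 6.68 CPM in S1S2 and 5.30, 4.78 and 4.34 CPM in G9Gl, a change of G9Gl from WT of -0.50 ± 0.0816 (edgeR adjusted p = 0.00113). In both genes no G9Gl library reached the lowest WT library. Part of the exons of Hoxc5 is annotated to another gene on the same strand, so its reads may have been shared. Hoxc9 was not past the threshold against WT, with 3.97, 3.83 and 2.80 CPM there and 2.84, 2.48 and 2.32 CPM in G9Gl, but G9Gl was lower than S1S2 (3.68, 3.39 and 4.56 CPM) by -0.60 ± 0.179 (edgeR adjusted p = 0.00851).

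Hoxa10 and Hoxc8 were the 2 members lower than WT by the adjusted p in both mutants. Hoxa10 had 18.1, 19.1 and 16.7 CPM in G9Gl, a change of -0.40 ± 0.0627 (edgeR adjusted p = 1.38e-04), and Hoxc8 had 2.18, 1.44 and 1.66 CPM, a change of -0.72 ± 0.168 (edgeR adjusted p = 0.00384). Both comparisons used the same WT libraries. Between the mutants, Hoxa10 differed by 0.03 (95% confidence interval -0.13 to 0.18) and Hoxc8 by 0.20 (95% confidence interval -0.26 to 0.56).

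Hoxc12 was the member that was higher in G9Gl. This posterior gene, next to Hoxc13, had 6.58, 6.21 and 5.58 CPM in WT, 4.73, 6.89 and 6.49 CPM in S1S2 and 9.41, 7.97 and 8.19 CPM in G9Gl. All G9Gl libraries exceeded those of the other genotypes, by 0.48 ± 0.157 against WT (edgeR adjusted p = 0.00517) and 0.49 ± 0.157 against S1S2 (edgeR adjusted p = 0.0046), and Hoxc12 moved from rank 7 in WT to rank 3.

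**Figure D4:**
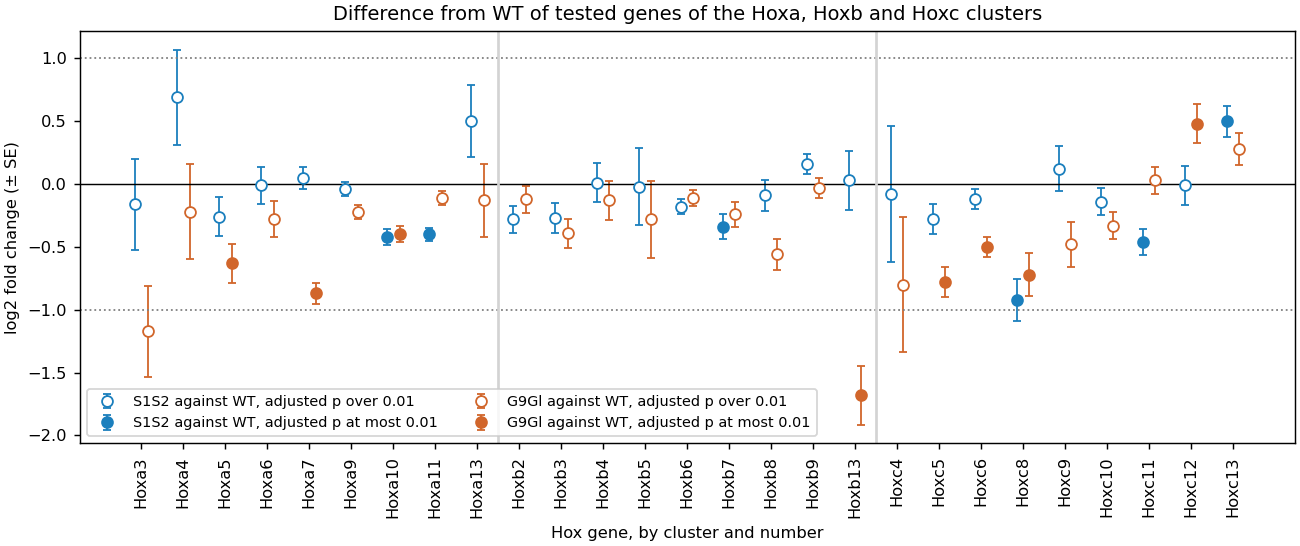
Log2 fold change against WT (points, with SE bars) of 27 tested genes of Hoxa, Hoxb and Hoxc for S1S2 (blue) and G9Gl (orange), with filled points for an adjusted p of at most 0.01 and dotted lines at a 2-fold difference. Hoxb13 in G9Gl is the only filled point beyond the dotted lines, and Hoxa3, at -1.17 in G9Gl, is beyond them with an adjusted p of 0.0142 (edgeR).

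Directly compared, the mutants differed in the same 2 called members, Hoxb13 and Hoxd8, both lower in G9Gl, beside 13.1% of all genes tested (5.08% lower and 7.97% higher), and DESeq2 called 2. By the adjusted p alone 4 members were lower in G9Gl (Hoxa7, Hoxb13, Hoxc9 and Hoxd8) and 3 higher (Hoxa11, Hoxc11 and Hoxc12), that is 7 of 29, beside 42.6% of all genes (21.1% lower and 21.6% higher). The member median was -0.26 beside 0 for all genes, with 21 of the 29 below 0 beside 50% of all genes.

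Of the 17 members with a mean count of 100 or more, Hoxa9, Hoxb2, Hoxb3, Hoxb4, Hoxb5, Hoxb6, Hoxb9 and Hoxc10 passed the adjusted p in none of the 3 comparisons of the main fit. Hoxa9, a leukaemia-associated posterior gene, had 16.1, 15.7 and 15.4 CPM in WT, 14.8, 15.4 and 15.8 CPM in S1S2 and 12.9, 14.6 and 12.9 CPM in G9Gl. The G9Gl libraries were all lower, with a log2 fold change of -0.22 (edgeR adjusted p = 0.021), while the 95% confidence interval for S1S2 was -0.17 to 0.10.

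In the anterior and central part of Hoxb, Hoxb2, a gene of hindbrain segments, had 12.4, 14.0 and 13.9 CPM in WT, 12.5, 9.80 and 11.1 CPM in S1S2 and 13.4, 11.5 and 12.1 CPM in G9Gl. Hoxb3 had 8.89, 8.63 and 7.09 CPM in WT, 7.26, 6.52 and 6.63 CPM in S1S2 and 6.11, 7.0 and 5.71 CPM in G9Gl, with 52.9% of its exon bases covered by Hoxb3os on the other strand. Only the G9Gl values of Hoxb3 came near the threshold, with a log2 fold change of -0.39 (edgeR adjusted p = 0.0104), and they passed it without a composition factor and with a replicate block. Hoxb4, known in blood stem cells, had 7.51, 6.94 and 7.41 CPM in WT, 6.53, 7.14 and 8.32 CPM in S1S2 and 7.69, 6.97 and 5.35 CPM in G9Gl. Hoxb5 had 5.26, 5.16 and 2.87 CPM in WT, 4.46, 3.94 and 4.80 CPM in S1S2 and 3.16, 4.96 and 2.91 CPM in G9Gl. For both genes the libraries of the 3 genotypes overlapped, and in Hoxb5 the third WT library was far below the other two.

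Hoxb6 had 15.1, 13.6 and 13.4 CPM in WT, 12.8, 12.3 and 12.2 CPM in S1S2 and 13.6, 13.2 and 12.2 CPM in G9Gl. Hoxb9 had 48.7, 47.5 and 54.0 CPM in S1S2, with a log2 fold change from WT of 0.16 (95% confidence interval -0.03 to 0.36). Hoxc10, a hindlimb-associated gene, had 9.23, 9.62 and 7.90 CPM in WT, 7.49, 7.98 and 8.79 CPM in S1S2 and 7.41, 7.47 and 6.36 CPM in G9Gl. Differences of these genes from WT were within 1.26-fold in either mutant. Members with lower counts that passed in no comparison, such as Hoxa3, Hoxa4, Hoxa6, Hoxa13, Hoxb8 and Hoxc4, had mean counts of 12.7 to 40.7 and are described by range. Their log2 fold changes ran from -0.16 to 0.69 in S1S2 and from -1.17 to -0.13 in G9Gl, with SEs of 0.126 to 0.539.

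Summed over its members, Hoxa stood at 70.6 ± 2.67 CPM in WT, 59.8 ± 0.569 CPM in S1S2 and 56.6 ± 2.10 CPM in G9Gl (SD, n = 3). Hoxb summed to 111 ± 1.25, 108 ± 5.91 and 98.4 ± 4.57 CPM, and Hoxc to 60.2 ± 4.57, 54.9 ± 2.86 and 56.5 ± 3.07 CPM. The Hoxa sum was thus at 84.7% of WT in S1S2 and 80.2% in G9Gl, more than the SDs apart, and the sum over all 4 clusters at 92.4% and 87.5%. These sums are dominated by a few genes, foremost Hoxb9, and carry no test. In bulk RNA, fewer cells that express a gene and less RNA per cell cannot be told apart.

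Genes that work with or upstream of Hox proteins were taken from fixed lists. All 9 TALE cofactors (the Pbx, Meis and Pknox partners of Hox proteins) were tested, and 1 was called, Meis3, at 1.05 in S1S2 (edgeR adjusted p = 1.53e-08), beside 9.0% of all genes. Without the fold limit 2 cofactors were higher and 4 lower in S1S2, beside 20.3% and 17.6%, and 2 higher and 3 lower in G9Gl, beside 19% and 16.0%, and Meis2 was lower in both mutants by the adjusted p, at -0.87 (edgeR adjusted p = 7.39e-10) and -0.85 (edgeR adjusted p = 6.03e-10). Of 16 upstream regulators 10 were tested, and 2 were called lower in G9Gl, beside 3.40% of all genes. Egr2, a hindbrain regulator, and Cyp26a1, a retinoic acid-degrading enzyme, were these genes, with 13, 22 and 12 against 38, 55 and 62 counts in WT and 1, 2 and 5 against 19, 12 and 8 counts. Cyp26a1 entered the test only through the other genotypes, so its call is no support beyond these counts. All 16 Polycomb and H3K27 demethylase genes were tested and 1 was called in each mutant, beside 9.0% and 10.2% of all genes, namely Cbx7, a Polycomb subunit that reads H3K27 methylation. It had 20, 15 and 7 counts in WT, 68, 71 and 57 in S1S2 and 4, 2 and 0 in G9Gl. It was called higher in S1S2 at 2.63 (edgeR adjusted p = 2.54e-06), and its lower call in G9Gl rests on counts too low to have entered the test by themselves. By the adjusted p alone, 2 of these 16 were higher and 6 lower in S1S2, beside 20.3% and 17.6% of all genes, and 1 was higher and 8 lower in G9Gl, beside 19% and 16.0%.

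Of 7 genes bound or controlled by Hox proteins 2 were tested, and both were called higher in S1S2, beside 4.66% of all genes, the receptor Epha2 at 1.65 (edgeR adjusted p = 1.1e-12) and the growth factor Gdnf at 1.04 (edgeR adjusted p = 3.71e-10). In G9Gl they were at 0.96 and 0.84, past the adjusted p and within the fold limit. The untested Epha7 had 15, 13 and 10 counts in WT and 0, 4 and 0 in S1S2. Of 7 limb position genes 3 were tested, of which 2 were called lower in S1S2, beside 4.34% of all genes, and 1 in G9Gl, beside 3.40%. Tbx5, a forelimb regulator, had 602, 514 and 539 counts in WT, 89, 129 and 113 in S1S2 and 394, 373 and 399 in G9Gl, with log2 fold changes of -1.91 in S1S2 (edgeR adjusted p = 4.69e-11) and -0.39 in G9Gl (edgeR adjusted p = 7.37e-04). Gli3 was at 0.07 and 0.13. Lmx1b, which marks dorsal limb, had 345, 356 and 281 counts in WT, 68, 112 and 74 in S1S2 and 0 in each library of G9Gl. Against the floor of 3 counts per library this was at least 101-fold lower than WT. Lmx1b was the limb position gene called in G9Gl and entered the test only through the other genotypes, so this call is no support beyond these counts.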

How the data were processed

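Total RNA of 9 MEF libraries was prepared by the authors with a stranded kit, sequenced as paired ends, aligned to GRCm38 with STAR 2.5.2b and counted per gene with TEtranscripts. The deposited values are raw counts per gene, and no gene annotation release or strand setting of the counting is given in the sources used here. Gene identifiers were matched, without their version, to GENCODE M21 symbols (98.5% of 47937). The total of 21319778 to 32157623 counts per library sets a floor of 3 counts at 0.0923 to 0.141 CPM.

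All 9 libraries entered 1 fit with edgeR 4.0.16 in R 4.3.3 (TMM scaling, filterByExpr with a minimum count of 10, quasi-likelihood F test). P-values were adjusted by Benjamini-Hochberg over all 15540 genes tested, and calls required an adjusted p no higher than 0.01 with a difference of 2-fold or more. SEs and 95% confidence intervals are from log2 CPM with a prior count of 2 and the SD pooled over genotypes, so an interval need not be centred on edgeR's fold change. The script was tested on simulated data. DESeq2 1.42.0, other scalings and filters, each library left out, and the replicate number as a block were alternatives. No 2 replicates agreed within sampling noise (chi-square per degree of freedom 2.57 to 23.5).

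Members and gene lists were chosen with earlier results of these data known. Every member enters the counts and medians, and the values of 1 member and of 1 other gene are not reported here. Those called in a comparison or with a mean count of at least 100 are given per library, as are other members past the adjusted p, which were added after their values were seen. Non-members are named where called, and others that are named were added likewise. Neural, endothelial, blood, skeletal muscle and pluripotency marker lists were also measured, with 2, 2, 1, 1 and 1 genes tested. Map2 was called lower in S1S2 than in WT, beside 4.34% of all genes, and Kdr higher, beside 4.66%. Cdh5 and Des were called higher in G9Gl than in WT, beside 6.77%. Endothelial markers had at most 4 counts in a WT library. Kdr and Cdh5 thus entered the test only through mutant libraries, and their calls are no support beyond those counts. The 1 blood and 1 pluripotency marker tested were not called.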

Additional observations from a re-analysis of the deposited data

Results flagged for a closer look

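By adjusted p and fold together, Hoxb13 and Hoxd8 differed between the mutants in a direct test, among 7 members past the adjusted p alone. Hoxb13 was at a log2 fold change of -1.71 in G9Gl against S1S2 (edgeR adjusted p = 7.77e-07), lower in 3 of 3 G9Gl libraries than in any S1S2 library. Hoxd8 had a fitted log2 fold change of -3.57 (edgeR adjusted p = 4.24e-04), a value that depends on the prior count because the G9Gl libraries held 3, 0 and 0 counts, so that it is given in the report as at least 4.52-fold lower. It moved to -6.69 without the first G9Gl library, the gene entered the test only through the libraries in which it was higher, and it was not tested when only the mutants were fitted.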

How the results depend on the processing

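The call of Hoxb13 was the same in all 20 alternatives against both WT and S1S2, with log2 fold changes of -2.0 to -1.50 and -2.03 to -1.54 when each library was left out in turn and edgeR or DESeq2 adjusted p-values up to 0.00372 and 0.00245. Leaving out libraries gave 2 to 3 called members for G9Gl against WT (the third was Hoxa3, without the first G9Gl library), 2 in every case for G9Gl against S1S2, and 0 to 1 for S1S2 against WT (Hoxc8, without the second WT library). With at least 10 counts required in every library, or a mean normalized count over 100 required of a call, 1 member was called for G9Gl against WT and 1 for G9Gl against S1S2, because Hoxd8 no longer qualified. Its fitted log2 fold changes ran from -6.82 to -3.13 against WT and from -6.69 to -3.0 against S1S2 with each library left out, the lowest of both without the first G9Gl library. Fitting only the libraries compared left 1 member called for G9Gl against S1S2, with 28 members tested, since Hoxd8 was not among them. With the limit on the adjusted p raised to 0.05 and any fold accepted, 7 members passed in S1S2 and 15 in G9Gl, both relative to WT, and 12 between the mutants. With a replicate block in the fit 0, 3 and 2 members were called. Hoxa3 was added in G9Gl against WT, as it was without a filter on low counts (3 called). By the adjusted p alone, the block left 10 in place of 8 lower in G9Gl than in WT (Hoxa3 and Hoxb3 added), beside 16.0% of all genes. It left 5 in place of 4 lower in G9Gl than in S1S2 (Hoxb9 added), beside 21.1%. Without a composition factor 9 were lower in G9Gl than in WT (Hoxb3 added), beside 17.8%. The numbers did not pair the samples (correlations of same-numbered deviations from -0.0703 to 0.123), and the samples share only a number. By the adjusted p alone, Hoxb7 was lost in S1S2 with the size factors of DESeq2 and with DESeq2 (4 lower in place of 5), and Hoxa5 in G9Gl with DESeq2 (7 in place of 8). Under other scalings the member median for G9Gl against WT was -0.33 to -0.36. Depth limits the 12 members with a mean count under 100.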
